A study of Mus musculus with 16 samples.

Results

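The genes described here were the FoxO transcription factors Foxo1, Foxo3 and Foxo4, the thioredoxin-binding protein gene Txnip, the sestrin genes Sesn1, Sesn2 and Sesn3, the cyclin gene Ccng2 and the transcription factor gene Klf2. These 9 genes were taken by symbol from the 46078 genes of the count table. FoxO factors are transcription factors that AKT phosphorylates when growth factor or insulin signalling is on, which keeps them in the cytoplasm. When that signalling is low they enter the nucleus and activate genes for cell cycle arrest, metabolism and protection against oxidants. In haematopoietic stem cells (HSCs) they are known for keeping the cells in quiescence and for limiting reactive oxygen species, and the other genes of the group are commonly listed as FoxO-responsive genes or as partners in the same stress response.

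RNA-Seq was performed on pools of 30 HSCs, sorted as LSK CD48-CD150+ cells, from untreated mice of the C57/Bl6 strain. WT mice were compared with Gfra2-/- mice, which lack the neurturin receptor GFRα2 in all tissues and have a deficit of cholinergic nerve fibres, so an effect on HSCs could be direct or come through their surroundings. Central BM was the flushed marrow and endosteal BM was obtained from the remaining bone. The 15 libraries used came from WT endosteal BM (n = 4), WT central BM (n = 4), Gfra2-/- endosteal BM (n = 4) and Gfra2-/- central BM (n = 3), and the age of the mice was not given in the sources used here. The letters A to D only name the libraries of a group. The study describes the libraries as biological replicates, while the labels do not say whether those of a group came from separate mice, so the p-values measure only the spread between these samples.

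The libraries held 826487 to 18550008 reads on genes, and every WT central library (826487 to 3367289) was shallower than all libraries of the other groups, so depth and the WT central group cannot be told apart. Spike-in RNAs took less than 0.5% of the reads in the last-listed library of each group (4 in all) and more in the remaining 11. Gfra2 had 0 to 4 counts in WT libraries and 0 or 1 in Gfra2-/- central libraries. Gfra2-/- endosteal libraries A to D had 2, 47, 1 and 9 counts. Since WT HSCs were at or near 0, and reads are counted over the whole gene, these counts cannot check the genotype. Gfra2-/- endosteal libraries B and D were above every WT library, and results are also given without them. All 10 HSC markers were detected in every group, with a summed level of 2690 to 4610 CPM (counts per 1000000 of the normalized gene total of the library). The 8 erythroid markers summed to 1220–1590 CPM in WT endosteal, 786–1020 in WT central, 1900–2650 in Gfra2-/- endosteal and 1230–2310 in Gfra2-/- central libraries, with Klf1 at 0 in the WT central libraries. Most of this sum was Car2 (1100–1430, 721–982, 1730–2540 and 1080–2250 CPM in these groups), while the median of Gata1 went the other way in endosteal HSCs, at 61.5 CPM in WT and 7.47 CPM in Gfra2-/- libraries. The 7 granulocyte and monocyte markers summed to 320–2450 CPM in WT central libraries and to 379–1360 in the others, the 6 lymphoid markers reached 1240 CPM in Gfra2-/- endosteal library D and at most 161 elsewhere, and the 5 stromal markers stayed at or under 20 CPM. The 5 megakaryocyte markers summed to 69.4–620 CPM and the 5 endothelial markers to 88.5–444 CPM, with Cdh5 at 0 in all groups.

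Txnip was by far the most abundant of the 9 genes, and of the 8 genes with a promoter at hand it was the only one whose promoter held the core sequence bound by FoxO factors. TXNIP is an arrestin-related protein that binds thioredoxin and restrains glucose uptake. The sequence shown is the 250 bases before the Txnip start in RefSeq, chr3:96557707-96557956 on the plus strand of GRCm38.p6, with capitals marking the FoxO core GTAAACA, 121 bases before the start, and a pair of the letters CACGAG spaced by 5 bases, which begins 85 bases before it. The pair resembles the carbohydrate response element through which MondoA and Mlx activate Txnip.
Txnip: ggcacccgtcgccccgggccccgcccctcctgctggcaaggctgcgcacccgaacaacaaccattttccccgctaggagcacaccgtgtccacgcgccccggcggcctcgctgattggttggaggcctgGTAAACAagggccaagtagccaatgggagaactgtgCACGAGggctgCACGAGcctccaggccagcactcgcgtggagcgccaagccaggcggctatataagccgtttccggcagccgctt
Promoters were available for 8 of the 9 genes, in 9 windows of 250 bases, and both strands were searched. The FoxO core was found in 1 of these 9 windows and in 1040 of all 32851 promoters of the RefSeq table (3.17%). The E box CACGTG was found in 0 of the 9 windows and in 6.02% of all promoters. The letters CACCC, common in sites of Klf factors, were found in 5 windows and in 52% of all promoters. The spaced pair, which was searched after the Txnip sequence was seen, was found in no other promoter of the table. These matches describe letters in a window and do not show that a factor binds there.

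Levels of different genes were compared as CPM per kb of exonic length, as the median over the 15 libraries. Txnip stood at 306 CPM per kb, higher than 99.3% of detected genes. Sesn1 followed at 32, and Foxo3 at 16.9 CPM per kb. Among neighbours in this order, only Txnip and Sesn1 had ranges that did not overlap, with the lowest Txnip level at 178 and the highest Sesn1 level at 56.7 CPM per kb. Ccng2 stood at 8.48 and Foxo1 at 7.25 CPM per kb, and Ccng2 was the higher of these in 10 of 15 libraries. The remaining genes were low, with Foxo4 at 0.835, Sesn3 at 0.381, Sesn2 at 0.261 and Klf2 at 0 CPM per kb. Foxo3 was higher than Ccng2 in 13 of 15 libraries and Sesn1 was higher than Foxo3 in 12. Below Foxo4 the order was not stable, since Sesn3 was higher than Sesn2 in 8 of 15 libraries.

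**Figure D1:**
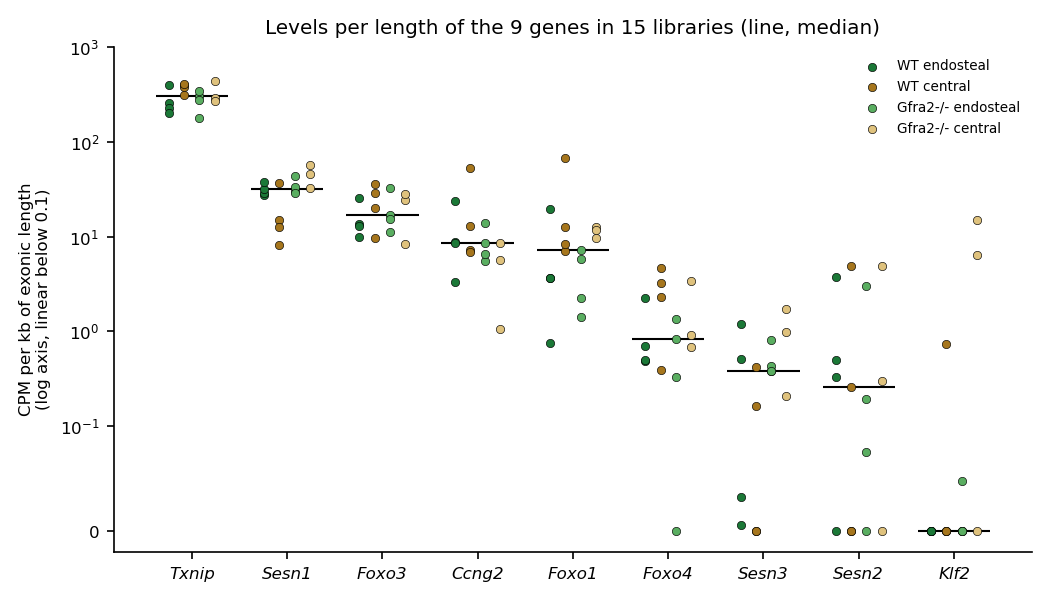
The vertical axis gives CPM per kb of exonic length on a log axis that is linear below 0.1. Each point is 1 of 15 libraries, coloured by group, and the line is the median. Txnip (median 306) lies above all other genes, Sesn1, Foxo3, Ccng2 and Foxo1 lie between 7.25 and 32 at the median, and Klf2 is at 0 in 11 libraries.

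None of the 9 genes passed the threshold of the main test in any of the 7 comparisons, which were the 4 pairs of groups, endosteal against central over both genotypes, Gfra2-/- against WT over both compartments, and the interaction between genotype and compartment. The main test was edgeR's quasi-likelihood test across all genes, at a Benjamini-Hochberg false discovery rate (FDR) of 0.1. Of the 6 genes tested in the comparison of the WT compartments, 0 were called, as were 0% of all 11181 genes tested. At an unadjusted p under 0.05, 0 of the 6 passed, against 7.89% of all genes, and 0 of the 6 had groups that did not overlap in CPM, against 6.36%. Between endosteal and central Gfra2-/- HSCs, 0 of 8 were called (0% of 13860 genes). Foxo1 passed the unadjusted p (4.79% of all genes) and its groups did not overlap (7.34%), which no other gene of the 8 did. Between central HSCs of the genotypes, 0 of 7 were called (0.051% of 11772 genes). Sesn1 alone of the 7 had an unadjusted p under 0.05 (8.73% of all genes), and 0 had groups apart (12.4%). Between endosteal HSCs of the genotypes, 0 of 8 were called (0% of 12970 genes), 0 passed the unadjusted p (6.69%) and 0 had groups apart (6.24%).

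With both genotypes together, 0 of 9 genes were called between endosteal and central HSCs (0.0259% of 15416 genes), while Foxo1 and Klf2 had an unadjusted p under 0.05 (8.71% of all genes). With both compartments together, 0 of 9 were called between the genotypes (0.804% of genes) and Klf2 had an unadjusted p under 0.05 (11.9%). For the interaction, 0 of 9 were called (0%) and 0 had an unadjusted p under 0.05 (6.97%). Counts of 0 to 2 genes out of 6 to 9 are too small to be read as different from these background shares. The pairs of groups share libraries, so their results are not independent of each other. The 36 exact two-sided permutation tests of single genes over libraries, which allow no p under 0.0286, gave none below 0.0857. The median log2 fold change of the genes tested was -0.74 for endosteal over central WT HSCs (0.03 over all genes), -0.68 in Gfra2-/- HSCs (0.03), -0.25 for Gfra2-/- over WT in central HSCs (0.03) and -0.16 in endosteal HSCs (0.03).

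**Figure D2:**
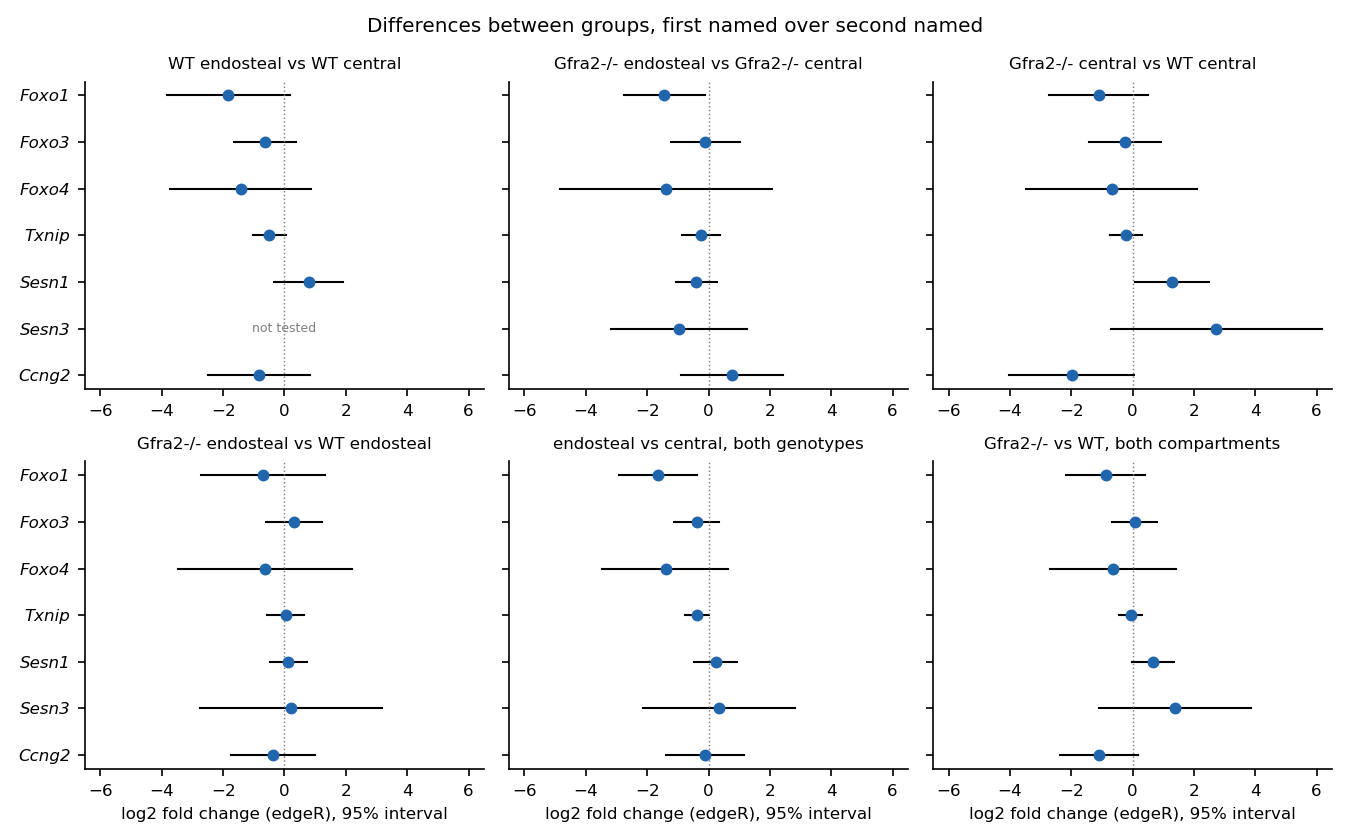
Each point is the log2 fold change of edgeR for the first group named over the second, with its 95% interval, in 6 comparisons for 7 of the genes. Sesn2 and Klf2 are left out because of their low counts, and Sesn3 was not tested between the WT groups. The interval for Txnip is the narrowest in the comparison of the genotypes over both compartments, and Foxo1 lies at -1.83, -1.44 and -1.64 in the 3 comparisons of endosteal with central HSCs.

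Foxo1 was lower in endosteal than in central HSCs of both genotypes, a difference that did not pass the FDR. In pools of sorted cells, fewer cells expressing a gene and less RNA per cell cannot be told apart. FOXO1 shares its DNA-binding domain with the other FoxO factors and is the member best known from lymphoid cells and liver. The gene lies on chromosome 3 from 52268336 to 52353221 on the plus strand of GRCm38, and 674 of its exonic bases overlap Gm20402 on the opposite strand. Counted without regard to strand, reads over exons of both genes go by HTSeq's default to a summary category and to neither gene. Reads from such overlaps may therefore be missing from these counts. Its level was 168, 31.6, 6.54 and 31.7 CPM in WT endosteal libraries A to D. WT central libraries A to D had 591, 110, 61.7 and 72.5 CPM. Library A was far above the other 3 in both WT groups, and the WT groups overlapped. Between WT libraries of the same letter the endosteal level was always the lower. The letters are not known to pair libraries, so a paired difference was not tested. The level was 19.3, 50.8, 12.3 and 62.8 CPM in Gfra2-/- endosteal libraries A to D and 109, 102 and 84 CPM in Gfra2-/- central libraries A to C. Here every central library was above every endosteal one.

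The log2 fold change of Foxo1 between endosteal and central HSCs was -1.83 ± 0.93 in WT mice (SE, edgeR's quasi-likelihood test, FDR = 0.641, 95% interval -3.84 to 0.17). It was -1.44 ± 0.59 in Gfra2-/- mice (edgeR p = 0.0374, FDR = 0.999, interval -2.77 to -0.10), and the exact permutation p was 0.0857. Over both genotypes it was -1.64 ± 0.61 (edgeR FDR = 0.431, interval -2.92 to -0.36). Single libraries moved these values. The WT value was -3.23 without WT endosteal library A and -0.46 without WT central library A, and the value over both genotypes was -2.30 and -0.94, in that order. Scaled to spike-in RNAs the log2 fold change of Foxo1 was -0.16 in WT mice and -0.74 over both genotypes, or -1.74 and -1.37 relative to the median of all genes. Within the 11 libraries with more spike-in reads it was -1.87 (edgeR FDR = 0.646), and in the other 4, with 1 library per group and levels of 31.7 and 62.8 CPM in endosteal against 72.5 and 84 CPM in central HSCs, it was -0.79 (edgeR FDR = 0.976). With a term for the spike-in share (under or over 0.5% of reads), added after seeing the data, it was -1.61 (edgeR FDR = 0.454). Without the Gfra2-/- endosteal libraries with over 3 Gfra2 counts it was -2.07 over both genotypes (edgeR FDR = 0.374) and -2.64 in Gfra2-/- mice (edgeR FDR = 0.939). In libraries of at least 1500000 reads the difference within WT mice was -0.64 (edgeR FDR = 0.926). Between the genotypes the log2 fold change of Foxo1 was -1.11 ± 0.74 in central HSCs and -0.70 ± 0.91 in endosteal HSCs, and these values turned to 0.24 and 0.62 without library A of the respective WT group. Foxo1 was also among the more variable genes, with a within-group SD of 1.36 on the log2(CPM + 1) scale, larger than that of 91.9% of genes of like level.

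Foxo3 did not differ detectably between any groups. FOXO3 is the FoxO factor most closely tied to HSC maintenance in mice. The gene lies on chromosome 10 from 42181841 to 42276755 on the minus strand. Its level was 191, 103, 74.5 and 97 CPM in WT endosteal libraries and 273, 220, 72.4 and 150 CPM in WT central libraries. In Gfra2-/- libraries it was 128, 245, 117 and 84 CPM in endosteal and 185, 214 and 63.3 CPM in central HSCs. All groups overlapped, with group means from 116 to 179 CPM. The log2 fold change was -0.64 ± 0.47 for endosteal over central WT HSCs (edgeR FDR = 0.771, interval -1.66 to 0.38). Over both compartments it was 0.07 ± 0.35 for Gfra2-/- over WT (edgeR FDR = 0.964), and the interval of -0.67 to 0.80 leaves room for a difference in either direction.

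Foxo4, on chromosome X from 101254528 to 101260873 on the plus strand, was the least abundant FoxO factor of the 3. Its counts were 7, 26, 27 and 95 in WT endosteal and 18, 36, 6 and 4 in WT central libraries, the shallow ones. They were 43, 94, 10 and 0 in Gfra2-/- endosteal and 49, 25 and 92 in Gfra2-/- central libraries. As CPM these were 1.71 to 7.77, 1.35 to 16.3, 0 to 4.74 and 2.36 to 11.8 in these 4 groups, which all overlapped. The log2 fold change of endosteal over central HSCs was -1.43 ± 1.07 in WT and -1.39 ± 1.52 in Gfra2-/- mice (edgeR FDR = 0.777 and 0.999), so a difference was not detectable at this depth. Foxo6, the fourth FoxO gene of the mouse, is no member of the group and was at 0 counts in 13 of 15 libraries, with 3 in WT central library B and 64 in WT central library D.

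Txnip lies on chromosome 3 from 96557957 to 96561883 on the plus strand, and 606 of its exonic bases overlap Gm15441 on the opposite strand. Its level was 1230, 804, 708 and 621 CPM in WT endosteal libraries A to D and 1240, 1180, 1260 and 979 CPM in WT central libraries. The central libraries were all above the endosteal ones except endosteal library A, which was among them. In Gfra2-/- libraries the level was 957, 557, 1080 and 857 CPM in endosteal and 1360, 894 and 831 CPM in central HSCs, and these overlapped. The mean was 841 ± 270 (SD, n = 4) in WT endosteal, 1160 ± 128 (n = 4) in WT central, 863 ± 224 (n = 4) in Gfra2-/- endosteal and 1030 ± 292 CPM (n = 3) in Gfra2-/- central libraries.

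The log2 fold change of Txnip for endosteal over central HSCs was -0.49 ± 0.25 in WT mice (edgeR FDR = 0.641, interval -1.03 to 0.06). In Gfra2-/- mice it was -0.25 ± 0.28 (edgeR FDR = 0.999, interval -0.88 to 0.38). Over both genotypes it was -0.37 ± 0.18 (edgeR FDR = 0.6, interval -0.76 to 0.01), and -0.37 within the 11 libraries with more spike-in reads. Scaled to spike-in RNAs in place of the gene total, the value over both genotypes was 0.19, where the median of all genes was 0.63, so Txnip stayed 0.44 log2 units below that median. Between the genotypes Txnip was at 0.04 ± 0.28 in endosteal and -0.20 ± 0.24 in central HSCs. The interval over both compartments, -0.45 to 0.32 (edgeR FDR = 0.937), bounds the genotype difference of Txnip more tightly than that of any other of the 9 genes.

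**Figure D3:**
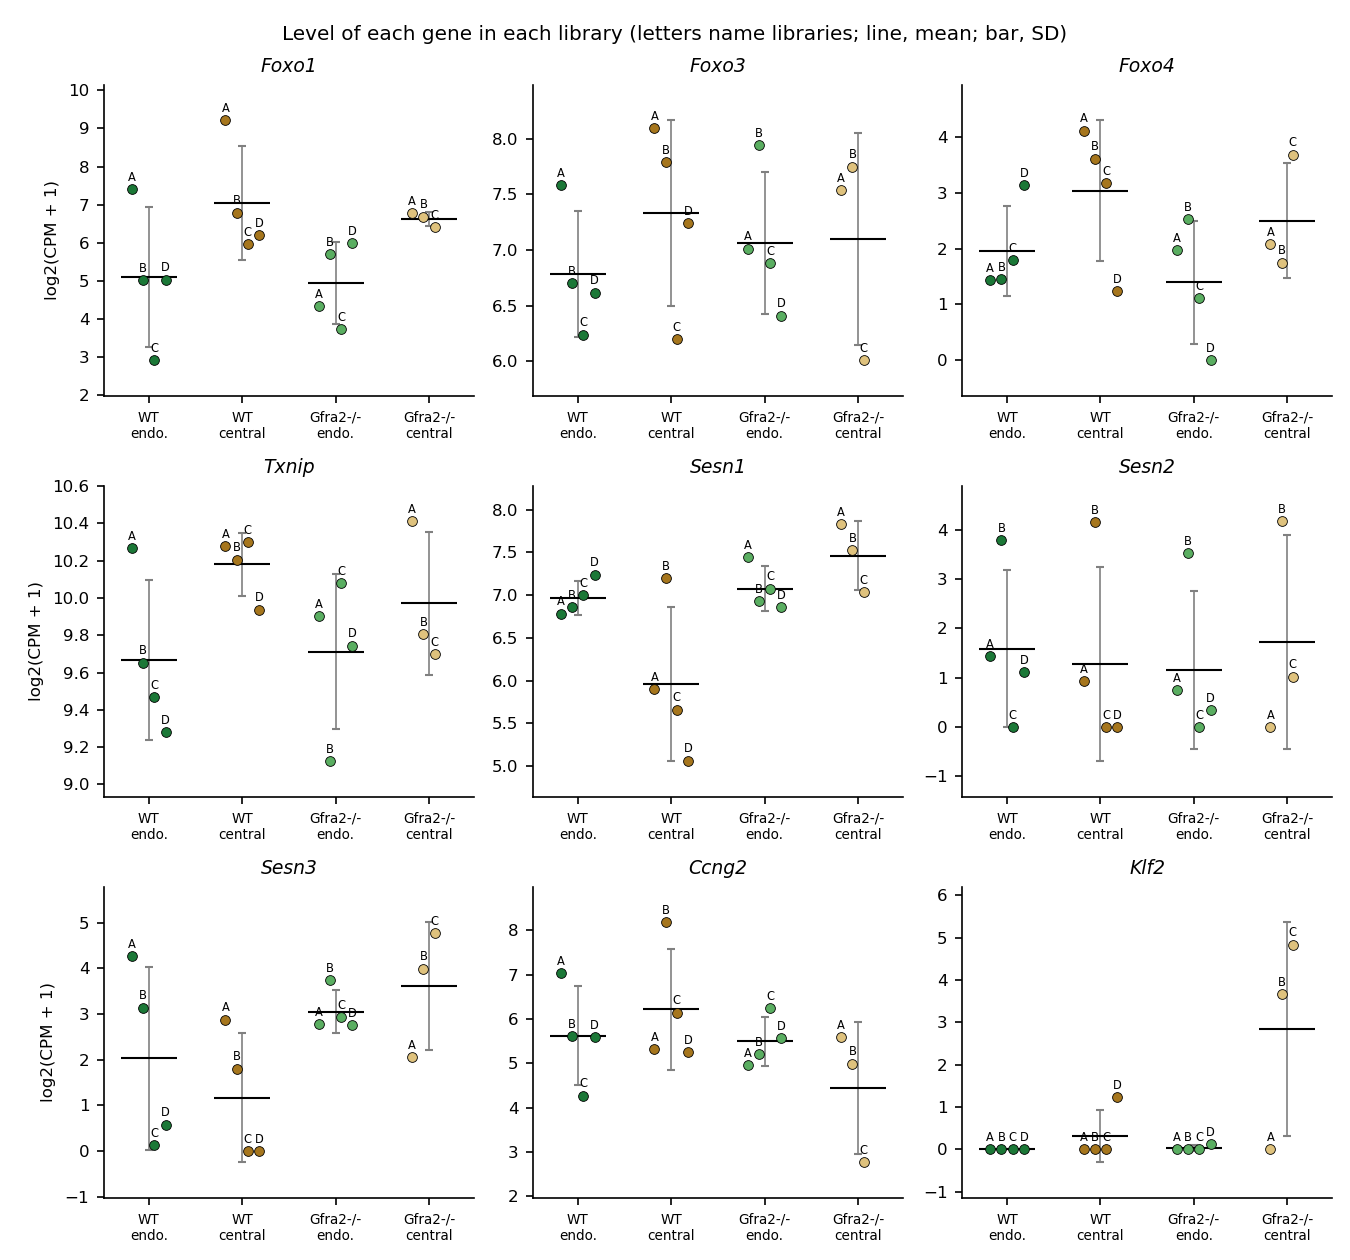
Each panel shows the log2(CPM + 1) of 1 gene in each of the 15 libraries, by group, with letters naming libraries, a line at the mean and a bar for the SD. Foxo1 lies lower in endosteal groups, Sesn1 is low in 3 of 4 WT central libraries, Sesn2 is high in library B of each group, and Klf2 is high in Gfra2-/- central libraries B and C.

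Sestrins are stress-induced proteins that hold back mTORC1, in part by sensing leucine, and help to keep peroxiredoxins reduced. Sesn1, on chromosome 10 from 41809935 to 41908424 on the plus strand, was the most abundant sestrin gene. Its level was 109, 115, 127 and 150 CPM in WT endosteal and 58.8, 146, 49.6 and 32.4 CPM in WT central libraries. In WT central BM, 3 of the 4 libraries were below all others and library B was not. The level was 173, 121, 134 and 115 CPM in Gfra2-/- endosteal and 226, 183 and 130 CPM in Gfra2-/- central libraries. The means were 125 ± 18.3 (SD, n = 4), 71.7 ± 50.8 (n = 4), 136 ± 26.2 (n = 4) and 180 ± 47.8 CPM (n = 3) in these 4 groups.

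In central HSCs the log2 fold change of Sesn1 for Gfra2-/- over WT was 1.30 ± 0.55 (edgeR p = 0.0376, FDR = 0.531, interval 0.09 to 2.50), with an exact permutation p of 0.0857. It was 1.21 within the libraries with more spike-in reads (edgeR FDR = 0.618) and 0.97 in libraries of at least 1500000 reads (edgeR FDR = 0.672). In endosteal HSCs the same difference was 0.12 ± 0.27 (edgeR FDR = 0.961, interval -0.48 to 0.72). The test of whether the compartment difference differed between genotypes gave -1.20 ± 0.60 (edgeR FDR = 0.713), so no such difference was shown. The WT central libraries, in which Sesn1 was low, were also the shallowest, and over the 15 libraries Sesn1 had a Spearman rho of 0.55 with the reads counted on genes. After all libraries were thinned to the depth of the shallowest, the log2 fold change in central HSCs was 1.26.

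Sesn2, on chromosome 4 from 132492032 to 132510501 on the minus strand, was high in 1 library of each group. Its counts were 7, 193, 0 and 14 in WT endosteal, 1, 54, 0 and 0 in WT central, 10, 208, 0 and 3 in Gfra2-/- endosteal and 0, 180 and 8 in Gfra2-/- central libraries. The high library was B in every group, at 10.5 to 17 CPM, while no other library passed 1.71 CPM. The count table lists its columns in 4 runs, each with 1 library per group, except that the third run has only 3 libraries in use. Libraries named B are those of the second run. The fourth run holds library D of 3 groups and library C of Gfra2-/- central BM, which are the 4 libraries with less than 0.5% spike-in reads. Of the 15416 genes tested, 85 (0.551%) were highest in the second run in every group. The first run had 72 such genes (0.467%) and the fourth had 84 (0.545%), so the second run did not stand out. The share to be met by chance was not set beside these, so they do not show whether the Sesn2 pattern is particular. Libraries of the same run did not vary together over 5477 well-covered genes, with correlations of their deviations from the group means from -0.08 to 0.04.

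Sesn3, on chromosome 9 from 14275067 to 14333101 on the plus strand, was detected unevenly. Its counts were 75, 117, 1 and 6 in WT endosteal, 7, 8, 0 and 0 in WT central, 86, 245, 57 and 66 in Gfra2-/- endosteal and 48, 158 and 205 in Gfra2-/- central libraries. Every Gfra2-/- library had 48 counts or more, while 6 of the 8 WT libraries had 8 or fewer. As CPM the WT libraries spanned 0 to 18.3 and the Gfra2-/- libraries 3.15 to 26.3, and these ranges overlapped. The log2 fold change for Gfra2-/- over WT in both compartments was 1.38 ± 1.18 (edgeR FDR = 0.715, interval -1.10 to 3.85), and it was 2.73 ± 1.58 in central HSCs (edgeR FDR = 0.674). By counting error alone, the count of 0 in WT central libraries C and D allowed up to 3 counts, or 4.02 and 1.01 CPM. Deeper libraries were low as well, at 0.0909 and 0.491 CPM in WT endosteal libraries C and D.

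Ccng2 encodes cyclin G2, an unusual cyclin that accompanies cell cycle arrest, and lies on chromosome 5 from 93267257 to 93276231 on the plus strand. Its level was 130, 47.8, 18.3 and 47.2 CPM in WT endosteal and 38.9, 289, 69.7 and 37.1 CPM in WT central libraries. It was 30.2, 36, 75 and 46.3 CPM in Gfra2-/- endosteal and 46.9, 30.8 and 5.78 CPM in Gfra2-/- central libraries. WT central library B was far above all others, and Gfra2-/- central library C was the lowest. For Gfra2-/- over WT the log2 fold change was -1.99 ± 0.93 in central HSCs (edgeR FDR = 0.579, interval -4.02 to 0.04), or -0.83 without WT central library B, and -0.37 ± 0.62 in endosteal HSCs (edgeR FDR = 0.942). For endosteal over central WT HSCs it was -0.84 ± 0.77 (edgeR FDR = 0.817), which turned to 0.32 without WT central library B.

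Klf2 encodes a zinc finger factor that holds lymphocytes and endothelium in a quiescent state, and lies on chromosome 8 from 72319033 to 72321656 on the plus strand. Its counts were 0 in all 4 WT endosteal libraries. WT central libraries A to C had 0 and D had 4 counts, and Gfra2-/- endosteal libraries A to C had 0 and D had 1. Gfra2-/- central libraries A to C had 0, 124 and 214 counts, or 0, 11.7 and 27.5 CPM. Nearly all Klf2 reads of the experiment thus came from 2 libraries of 1 group, and the third library of that group had none. No fold change is given, because the other groups were at or near 0. By edgeR's quasi-likelihood test Klf2 missed the threshold between endosteal and central HSCs of both genotypes (FDR = 0.157), and its FDR was 0.0666 without Gfra2-/- central library A, 0.208 without B and 0.283 without C. DESeq2's Wald test called it over both genotypes (FDR = 0.0667, where 3.59% of genes were called) and between Gfra2-/- endosteal and central HSCs (FDR = 0.0181, where 2.75% were called). These calls rest on the same 2 libraries, and the exact permutation p between the Gfra2-/- compartments was 0.143. Klf2 passed the filter of the main test in none of the pairs of groups. The B cell markers Cd79a and Ebf1 were at 22.3 and 16.1 CPM in Gfra2-/- central library B and at 38.9 and 2.83 CPM in C, against 0 and 0.262 CPM in A. They were higher still in Gfra2-/- endosteal library D, at 322 and 90.7 CPM, where Klf2 had 1 count, and the T cell marker Cd3g was at 17.8 CPM in Gfra2-/- central library B. The summed endothelial markers were at 160, 295 and 444 CPM in Gfra2-/- central libraries A to C, with Kdr at 3.48, 63.9 and 33.3 CPM, while Kdr reached 128 CPM in WT central library A, which had no Klf2 count. The part of these markers in the Klf2 counts was not tested.

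Among related genes, 2 passed the threshold, both between the genotypes over both compartments, and no gene of the lists did in the other 6 comparisons. The lists held the 4 FoxO genes, 29 upstream regulators of FoxO factors, 32 FoxO target genes, 15 partners and relatives of Txnip, 27 genes of the sestrin and mTORC1 pathway, 15 genes around Klf2 and 17 immediate-early genes that respond to cell dissociation. In the comparison of Gfra2-/- with WT over both compartments, the lists had 0 of 3, 0 of 29, 0 of 30, 1 of 13, 1 of 26, 0 of 14 and 0 of 13 tested genes called, beside 0.804% of all genes, a share from which counts this small cannot be told apart. Their median log2 fold changes were -0.65, -0.06, -0.20, 0.04, -0.02, 0.05 and -0.03, beside 0.11 over all genes.

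Txn1, which encodes the thioredoxin that TXNIP binds, was lower in libraries labelled Gfra2-/-. The gene lies on chromosome 4 from 57943373 to 57956411 on the minus strand. Its level was 424, 387, 348 and 407 CPM in WT endosteal and 556, 498, 787 and 331 CPM in WT central libraries. It was 272, 227, 217 and 154 CPM in Gfra2-/- endosteal and 146, 313 and 256 CPM in Gfra2-/- central libraries. All 7 Gfra2-/- libraries were below all 8 WT libraries. The share of all genes with the genotypes apart in this way was not counted. Txn1 is named because it passed the FDR on these same values, so the separation adds no support. The mean was 226 ± 60.8 CPM (SD, n = 7) against 467 ± 149 CPM (n = 8), and the log2 fold change was -1.0 ± 0.22 (edgeR's quasi-likelihood test, FDR = 0.0636). Within single compartments it was -1.21 in central and -0.84 in endosteal HSCs, neither of which passed (edgeR FDR = 0.36 and 0.645). Scaled to spike-in RNAs it was -0.26, or -1.0 relative to the median of all genes, and no call was made with that scaling (edgeR FDR = 0.983). In libraries of at least 1500000 reads it was -0.81 (edgeR FDR = 0.182).

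Tsc2, which encodes tuberin, a brake on mTORC1, was higher in libraries labelled Gfra2-/-. It lies on chromosome 17 from 24595816 to 24632630 on the minus strand, and 693 of its exonic bases overlap Pkd1 on the opposite strand. Its level was 43.4, 49.4, 24.8 and 72.2 CPM in WT endosteal and 24.4, 28.3, 25.5 and 29 CPM in WT central libraries. It was 41.1, 217, 159 and 78.2 CPM in Gfra2-/- endosteal and 126, 82.3 and 149 CPM in Gfra2-/- central libraries. The genotypes overlapped only through Gfra2-/- endosteal library A. Tsc2 too is named because it passed the FDR on these same values, so this near separation adds no support. The share of all genes with a like separation was not counted. The mean was 122 ± 59.4 CPM (SD, n = 7) against 37.1 ± 16.9 CPM (n = 8), and the log2 fold change was 1.74 ± 0.37 (edgeR's quasi-likelihood test, FDR = 0.0587). Within single compartments it was 2.13 in central and 1.39 in endosteal HSCs, neither of which passed (edgeR FDR = 0.318 and 0.737). The WT central libraries, lowest in Tsc2, were also the shallowest, so depth and group cannot be told apart there. Scaled to spike-in RNAs the value over both compartments was 2.04, or 1.30 relative to the median of all genes (edgeR FDR = 0.733). In libraries of at least 1500000 reads it was 1.64 (edgeR FDR = 0.178).

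Both calls depended on single libraries. The Txn1 call was lost without any 1 of 9 libraries (WT endosteal A or D, WT central A, B or C, Gfra2-/- endosteal D, and Gfra2-/- central A, B or C), with FDR from 0.0564 to 0.176 and log2 fold changes from -1.08 to -0.85 over all 15 such fits. The Tsc2 call was lost without WT endosteal A, WT central A, B or C, Gfra2-/- endosteal B or C, or Gfra2-/- central A, B or C, with FDR from 0.0312 to 0.154 and log2 fold changes from 1.57 to 1.91. Within the 11 libraries with more spike-in reads the log2 fold changes were -0.99 for Txn1 and 1.91 for Tsc2 (edgeR FDR = 0.329 and 0.287). With the term for the spike-in share they were -0.99 and 1.75 (edgeR FDR = 0.0721 and 0.068). Without the Gfra2-/- endosteal libraries with over 3 Gfra2 counts they were -0.93 and 1.72 (edgeR FDR = 0.208 and 0.173). Car2, the main part of the erythroid sum given above, was higher in Gfra2-/- than in WT libraries of the same compartment, and the part of these markers in these differences was not tested.

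**Figure D4:**
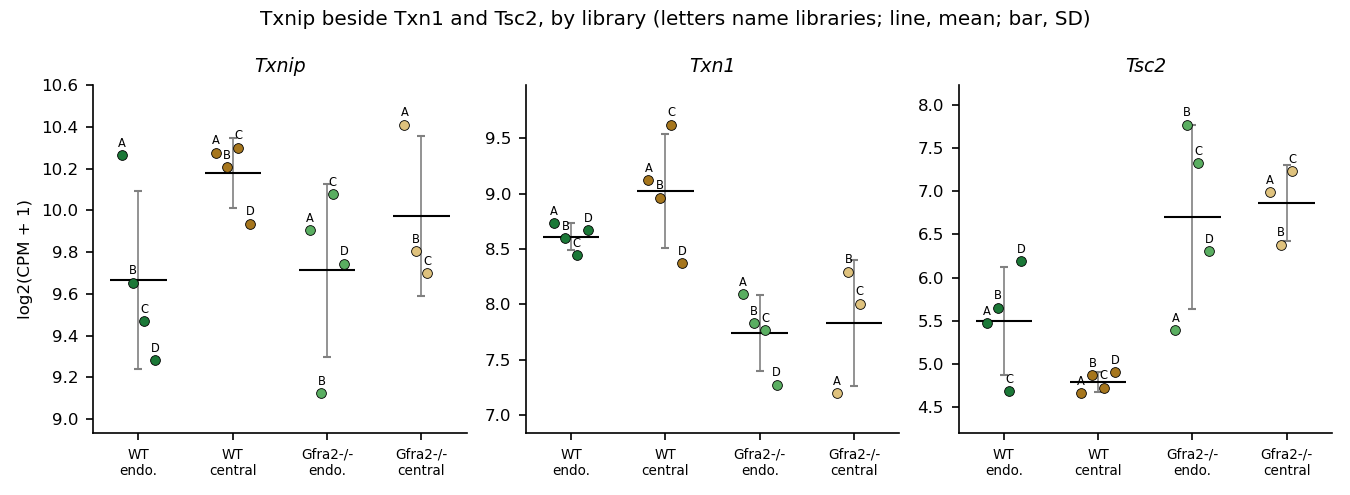
The log2(CPM + 1) of Txnip, Txn1 and Tsc2 is shown for each of the 15 libraries, by group, with letters naming libraries, a line at the mean and a bar for the SD. Txnip overlaps between the genotypes. Txn1 spans 146 to 313 CPM in Gfra2-/- and 331 to 787 CPM in WT libraries, and for Tsc2 the WT central libraries are the lowest group at 24.4 to 29 CPM.

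Other genes of these lists had small unadjusted p without passing the FDR. Among FoxO targets, Cited2, which encodes a transcriptional co-regulator needed for HSC maintenance, had a log2 fold change of -1.29 for Gfra2-/- over WT in both compartments (edgeR FDR = 0.143), with means of 43 and 110 CPM. Rbl2, which encodes the pocket protein p130 of quiescent cells, had 1.38 (edgeR FDR = 0.148), with means of 127 and 51.8 CPM. Among upstream regulators, the phosphatase gene Inpp5d had -1.17 (edgeR FDR = 0.188). Between endosteal and central HSCs of both genotypes, Atf4, a stress-response factor that induces Sesn2, had -0.84 (edgeR FDR = 0.27), with means of 96.2 and 177 CPM.

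The genes most like the 5 well-covered members over the 15 libraries were ranked by Spearman's rho of log2(CPM + 1) among 5477 genes, as a description without a test, since all points share the depth of the same libraries. The closest to Txnip were 2310009B15Rik (rho = 0.91), Klf6 (0.83) and Ikzf5 (0.82). Foxo1 was closest to Pabpn1 (0.84), Pgd (0.79) and Laptm5 (0.78). For Foxo3 they were Gm6085 (0.84), Mecom (0.79), a transcription factor gene of HSCs, and Atp6v0d1 (0.77). Sesn1 was closest to Itsn1 (0.86), Gng11 (0.85) and Ddx55 (0.80), and Ccng2 to the deacetylase gene Sirt1 (0.84), Kansl1 (0.79) and Tbrg1 (0.78). Among the members themselves, the highest values were 0.57 for Foxo1 with Txnip, 0.54 for Foxo1 with Foxo3 and 0.47 for Txnip with Ccng2, while Sesn1 had -0.11 with Foxo1 and with Txnip.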

How the data were processed

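RNA-Seq libraries had been made by the authors with the Smart-seq2 protocol from pools of 30 cells, with oligo-dT priming and no molecular identifiers, so reads are not independent molecules and the depth covers counting error only. The authors aligned single-end reads to GRCm38 (mm10) with GSNAP, counted reads per gene with HTSeq 0.5.3p3 without regard to strand, and deposited these raw counts for 46078 genes, 92 spike-in RNAs and 5 summary categories (54.6 to 80.3% of a library's total), which stayed out of library sizes and tests. The table has no sample titles. Its columns were assigned to groups through the sample lists of the study's supplementary data, and 1 column of per-sample values was not used, so 15 of the 16 samples enter. Positions came from GENCODE M21, which held 45143 of the genes, and promoters from the RefSeq table of GRCm38.p6.

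Counts were tested with edgeR 4.0.16 (R 4.3.3) with filterByExpr, TMM normalization, the quasi-likelihood test and Benjamini-Hochberg adjustment over all genes tested, at an FDR of 0.1. The fits used only the groups compared, or all 15 libraries with the other factor as a covariate for the effects over both genotypes or compartments and for the interaction. SE were taken from the F statistic, and intervals are at 95%. CPM are counts scaled to the gene total after TMM over all 15 libraries. Exact permutation tests used log2(CPM + 1). The code was tested on simulated data with known changes. Python 3.11.15, numpy 2.4.6, pandas 2.3.3, scipy 1.17.1 and matplotlib 3.10.9 were also used.

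The members and gene lists were chosen with earlier results of these data known. All 9 members were named whatever their result, and of each list the genes that passed the threshold and up to 3 with the smallest p in a comparison. Foxo6 and the marker genes named individually were chosen after their values were seen. Folds of Sesn2 and Klf2 are not given, since whole groups were at or near 0 counts. Alternatives were DESeq2 1.42.0 and its size factors, spike-in size factors, other filters on low counts, an FDR of 0.05 and counts thinned to the shallowest library. Others were a single fit of all groups, only libraries with more spike-in reads or at least 1500000 reads, and each library left out in turn. Chosen after seeing the data were leaving out the Gfra2-/- endosteal libraries with over 3 Gfra2 counts and using only the 4 libraries with fewer spike-in reads. A term for the spike-in share (under or over 0.5% spike-in reads) was also chosen then. The labels name no batch, so this term is only a cut by spike-in share.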

Additional observations from a re-analysis of the deposited data

Results flagged for a closer look

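In 10 of the 26 groups of 4 libraries that could be tested, the highest library stood apart from the others by Dixon's criterion at the 95% level. For normally spread values chance marks about 1 in 20 groups, but a single count among libraries at 0 is always marked, so the number is not read against that rate. Groups of 3 were not tested. Foxo1 had a highest library of 168 CPM in WT endosteal (next 31.7) and of 591 CPM in WT central HSCs (next 110). Foxo4 reached 7.77 CPM in 1 WT endosteal library (next 2.45). Sesn2 reached 12.9 CPM in WT endosteal (next 1.71), 16.8 in WT central (next 0.905) and 10.5 in Gfra2-/- endosteal HSCs (next 0.676). Sesn3 reached 12.4 CPM in 1 Gfra2-/- endosteal library (next 6.6). Ccng2 reached 289 CPM in 1 WT central library (next 69.7). Klf2 was at 1.35 CPM, or 4 counts, in 1 WT central library and at 0.0876 CPM, or 1 count, in 1 Gfra2-/- endosteal library, with the other libraries of these groups at 0. No gene was marked for a difference of its compartment effect between the genotypes.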

How the results depend on the processing

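No paired analysis was possible because no replicate number is attached to any column of the counts. The sample titles list the groups in the same order as the columns, so pairing by the runs of the column order was possible as an assumption. It was not tested, since libraries of the same run are not known to share a replicate. Of 895 alternative log2 fold changes of members and of Txn1 and Tsc2, 798 kept their direction and their side of the threshold, 29 lost the call of Txn1 or Tsc2 and 68 changed sign. Of the 171 alternative levels, the 36 with DESeq2 size factors moved by less than the spread between libraries. The other 135 left a library out, which cannot move a group mean by more than that spread. They therefore do not show whether a level depends on a single library. The cause was not tested for any of these changes.

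Under scaling to spike-in RNAs the median over all genes (log2) moved to 1.58 between the WT groups, 1.75 between central HSCs of the genotypes, -0.28 between endosteal HSCs of the genotypes, 0.63 between compartments and 0.74 between genotypes. Log2 fold changes that changed sign with it were, for endosteal over central WT HSCs, Foxo3 0.75, Foxo4 2.33, Txnip 0.86 and Ccng2 1.02. For Gfra2-/- over WT in central HSCs they were Foxo1 1.48, Foxo3 1.10, Foxo4 3.0 and Txnip 1.51, and in endosteal HSCs Foxo1 0.25, Foxo3 -0.13 and Sesn1 -0.45. Over both genotypes they were Foxo3 0.18, Txnip 0.19 and Ccng2 0.98, and over both compartments Foxo1 0.83 and Txnip 0.75. Relative to that median the reported direction was still lost by Foxo4 between the WT groups (0.75) and between central HSCs (1.25), Foxo1 (0.53) and Sesn1 (-0.17) between endosteal HSCs, Ccng2 over both genotypes (0.35), and Foxo1 (0.09) and Txnip (0.01) over both compartments. The others that had changed sign kept it. Without a change of sign before, it was also lost relative to the median by Foxo3 over both compartments (-0.29), Sesn3 over both genotypes (-0.09) and Ccng2 between endosteal HSCs (0.02).

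With at least 10 counts in every library, Txnip was at 0.06 for Gfra2-/- over WT. In libraries of at least 1500000 reads, Foxo1 was at 0.07 between central HSCs of the genotypes, Sesn1 at -0.03 between compartments and Txnip at 0.01 between genotypes. In libraries with more spike-in reads, Foxo4 was at 0.09 for endosteal over central Gfra2-/- HSCs, Foxo3 at 0.03 between central HSCs of the genotypes, and Foxo4 at 0.58, Txnip at -0.07 and Sesn3 at -0.07 between their endosteal HSCs. With thinned counts, Sesn1 was at -0.01 and Ccng2 at 0.05 between endosteal HSCs of the genotypes and Foxo3 at -0.07 between genotypes. Without the Gfra2-/- endosteal libraries with over 3 Gfra2 counts, chosen after seeing the data, Sesn3 was at -0.10 between endosteal HSCs of the genotypes, and Foxo3 at -0.06 and Txnip at 0.05 between genotypes. Of the other fits chosen after seeing the data, the term for the spike-in share gave Ccng2 0.04 between compartments. The 4 libraries with fewer spike-in reads, a fit with 1 residual degree of freedom, gave Sesn3 -0.13 and Ccng2 1.68 between compartments. Between genotypes these libraries gave Foxo1 0.59, Foxo3 -0.73 and Txnip 0.11.

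With each library left out in turn, the values that crossed 0 were, for Gfra2-/- over WT in endosteal HSCs, Ccng2 (-0.69 to 0.29), Foxo1 (-1.11 to 0.62), Foxo3 (-0.09 to 0.63), Foxo4 (-1.33 to 0.17), Sesn1 (-0.04 to 0.22), Sesn3 (-0.20 to 1.42) and Txnip (-0.09 to 0.26). In central HSCs they were Foxo1 (-1.42 to 0.24) and Foxo3 (-0.58 to 0.10), and over both compartments Foxo3 (-0.15 to 0.27) and Txnip (-0.13 to 0.05). For endosteal over central HSCs they were Ccng2 in WT mice (-1.58 to 0.32), Foxo3 in Gfra2-/- mice (-0.49 to 0.22), and Ccng2 (-0.39 to 0.55) and Sesn3 (-0.32 to 0.83) over both genotypes.

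Members called stayed at 0 except for Klf2: DESeq2 called 1 member between Gfra2-/- compartments and 1 over both genotypes, spike-in factors 1 over both genotypes, and leaving out libraries 0 to 1 over both genotypes. Counts of all genes called moved widely. Between the WT groups (0) they were 607 with DESeq2, 58 with no filter, 11 with at least 10 counts and 4 with thinned counts. They were 22 with all groups in 1 fit, 1 with the term for the spike-in share and 0 to 6 with a library left out. Between Gfra2-/- compartments (0) they were 395 with DESeq2 and 15 with spike-in factors. Between central HSCs of the genotypes (6) they were 730, 2 with spike-in factors, 134 with no filter, 29 with at least 10 counts, 1 with more spike-in reads, 0 with at least 1500000 reads, 0 at an FDR of 0.05 and 0 to 8 with a library left out. Between their endosteal HSCs (0) they were 531, 6 with spike-in factors and 1 with all groups in 1 fit. Between compartments (4) they were 534, 13 with DESeq2 size factors, 33 with spike-in factors, 30 with no filter, 22 with at least 10 counts, 12 with thinned counts, 0 with more and 1 with fewer spike-in reads, 2 with at least 1500000 reads, 2 at an FDR of 0.05, 0 without the libraries with over 3 Gfra2 counts and 0 to 20 with a library left out. Between genotypes (124) they were 1247, 66 with no filter, 231 with at least 10 counts, 0 with more and 0 with fewer spike-in reads, 22 with at least 1500000 reads, 37 at an FDR of 0.05, 18 without the libraries with over 3 Gfra2 counts and 15 to 159 with a library left out. For the interaction (0) they were 240 and 193 with spike-in factors.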

Other observations

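The within-group SD of the members on the log2(CPM + 1) scale, set beside genes of like mean level, ranged from small to large. For Sesn1 it was 0.53, above that of 19.8% of such genes, and for Txnip 0.36, above that of 59.4%. For Foxo3 it was 0.75 (57.7%), for Ccng2 1.16 (68.2%), for Sesn2 1.82 (87.8%) and for Foxo1 1.36 (91.9%).

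Over the 15 libraries, Spearman's rho with the reads counted on genes was -0.51 for Txnip and -0.43 for Foxo1, beside 0.55 for Sesn1. These values are descriptions, since the WT central libraries differ from the others in depth and in group at once.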
